A study of Mus musculus with 4 samples.

Results

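The neutrophil-like cells were 126 barcodes among the 37344 cells kept from 4 single-cell RNA libraries of mouse bone marrow. They were chosen by 3 transcripts counted in the cells themselves: a barcode was a member with at least 20 S100a8, at least 20 S100a9 and at least 3 Ngp unique molecular identifiers (UMIs, each standing for 1 captured RNA molecule). S100a8 and S100a9 encode the subunits of calprotectin, the main cytosolic protein of neutrophils, and Ngp encodes neutrophilic granule protein. Cells were kept when they had 500 to 7500 detected genes and under 10% mitochondrial UMIs. The levels of the 3 genes, and of every other transcript of these cells set against other cells, describe the choice and test nothing.

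The cells came from the LSK gate (Lin-, Sca-1+, Kit+), which is used to sort blood stem and early progenitor cells, after enrichment for Cd117, the Kit receptor. Each library was 1 pool of marrow from 5 mice aged 8 to 12 weeks, and there was 1 library per genotype. The Ikk2CA mice carried the R26StopFLikk2ca allele, whose kinase Ikk2 is held active by the changes S177E and S181E and which turns on NF-κB signalling. The Jak2V617F mice carried a floxed Jak2 V617F allele, the kinase change found in myeloproliferative neoplasms. The double mutant mice carried both alleles, and the control mice carried neither. All 4 genotypes, controls included, carried 1 copy of Vav1-iCre, which recombines floxed alleles throughout the blood system and not in neutrophils alone. The design text also names a cis-NF-κB EGFP reporter in the crosses. With 1 library per genotype there was no replicate: differences between libraries have no test, and each interval below is an exact 95% interval that covers counting error only.

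Neutrophils arise in the marrow from granulocyte-monocyte progenitors and pack their granules in order. Promyelocytes make primary (azurophil) granule proteins such as myeloperoxidase and elastase. Myelocytes and metamyelocytes make secondary (specific) granule proteins such as lactoferrin and cathelicidin, and band and segmented cells make tertiary granule proteins such as gelatinase and the receptors of mature neutrophils. Mature neutrophils carry the Ly6G antigen, a usual component of the lineage antibodies, and lack the Kit receptor. The progenitors set beside the neutrophil-like cells were the 1398 Elane-high cells, with at least 5 UMIs of Elane, the neutrophil elastase gene, and under 20 S100a8 UMIs.

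Neutrophil-like cells numbered 26 of 9865 kept cells in Ikk2CA (0.264%, interval 0.172 to 0.386%), 62 of 14156 in Jak2V617F (0.438%, 0.336 to 0.561%), 11 of 5268 in the double mutant (0.209%, 0.104 to 0.373%) and 27 of 8055 in control (0.335%, 0.221 to 0.487%). The 3 mutant shares over the control share gave ratios of 0.786 (0.441 to 1.40) for Ikk2CA, 1.31 (0.819 to 2.14) for Jak2V617F and 0.623 (0.279 to 1.30) for the double mutant. All 3 intervals held 1, so no difference from control was detectable at these cell numbers. Elane-high progenitors made up 5.53% of kept cells in Ikk2CA, 2.48% in Jak2V617F, 3.99% in the double mutant and 3.63% in control. As a share of both classes together, neutrophil-like cells were 4.55% in Ikk2CA, 15% in Jak2V617F, 4.98% in the double mutant and 8.46% in control. The Jak2V617F library thus had the highest share on either denominator. The sort decides which cells enter the gate, and its part in these shares was not tested.

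**Figure D1:**
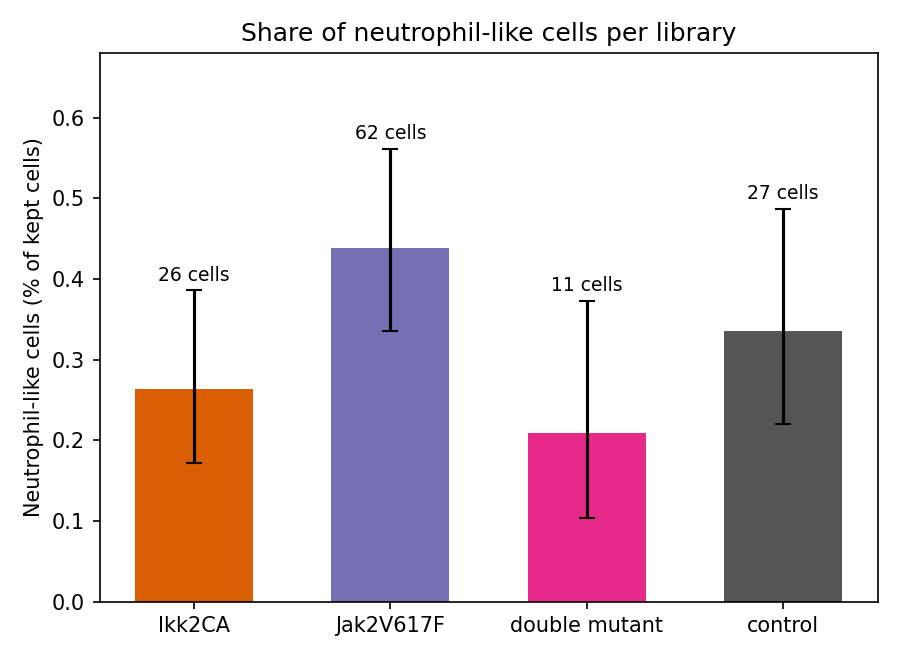
Share of neutrophil-like cells among kept cells (y axis, percent) in the Ikk2CA, Jak2V617F, double mutant and control libraries; bars give the share of 1 library each and error bars the exact 95% binomial interval for counting error. The bars stand at 0.264%, 0.438%, 0.209% and 0.335%, and each mutant interval overlaps that of control.

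The cells were shallower than the progenitors beside them. Median UMIs per cell were 9860 in Ikk2CA, 10498 in Jak2V617F, 21435 in double mutant and 11339 in control neutrophil-like cells, against 35339, 24188, 52027 and 28341 in Elane-high progenitors of the same 4 libraries. The members summed to 249835 to 686951 UMIs per library. No barcode of a member occurred in another library, although pairs of libraries shared 195 barcodes among all those deposited. S100a8 was also seen at a background level outside the members: among other kept cells, at least 1 S100a8 UMI was seen in 8.79% in Ikk2CA, 7.66% in Jak2V617F, 7.17% in the double mutant and 14.8% in control. In cells with at least 5 UMIs of the B-cell gene Cd79a, which should not make S100a8, the shares were 6.39%, 5.68%, 7.27% and 13.6% in the same order, at median depths of 12724 to 29192 UMIs. Scrublet, a doublet caller, marked 208 cells in Ikk2CA and 1, 2 and 0 in the other 3 libraries, so it cannot be taken to have worked there, and no cell was removed. The highest doublet scores were held by 26 of 26 members in Ikk2CA, 5 of 62 in Jak2V617F, 1 of 11 in the double mutant and 0 of 27 in control.

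A few granule and calprotectin transcripts filled much of each cell. S100a9 made up 12.7% and S100a8 10.1% of all UMIs of the members, followed by Camp at 3.85% and Ngp at 3.11%. Within single members the sum of S100a8 and S100a9 had a lowest, median and highest share of 7.08, 35.0 and 41.1% of UMIs in Ikk2CA, 2.65, 27.3 and 43.6% in Jak2V617F, 1.33, 34.8 and 43.2% in the double mutant, and 0.832, 25.5 and 38.5% in control. Libraries overlapped over most of this range, and each held cells with under 10% as well as cells above 38%. Camp, which encodes the antimicrobial cathelicidin, had medians of 394.8 UMIs per 10000 in Ikk2CA, 399.8 in Jak2V617F, 460.1 in double mutant and 248.2 in control members, and it was detected in 123 of the 126. Ltf, the lactoferrin gene, was detected in 114 members and Lcn2, the gene of the iron-scavenging lipocalin-2, in 124.

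**Figure D2:**
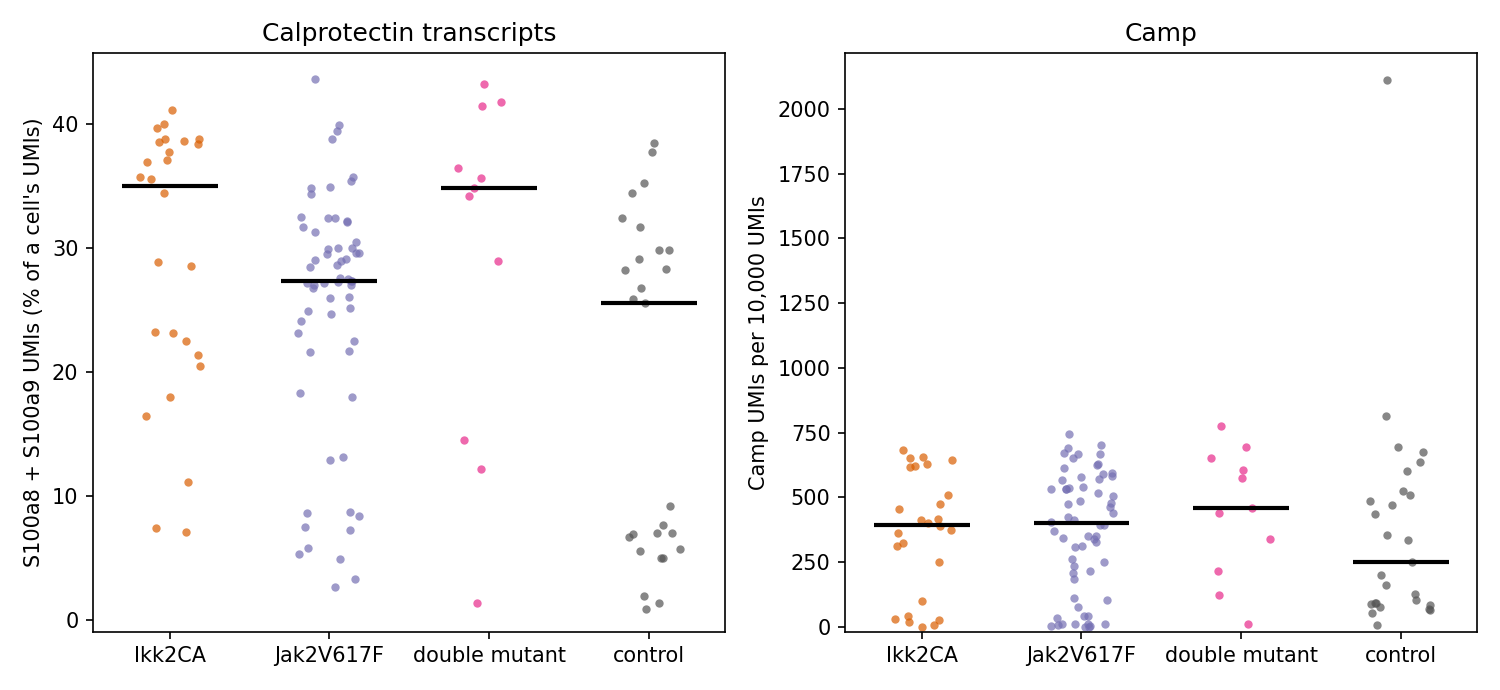
S100a8 plus S100a9 UMIs as a percent of each cell's UMIs (left) and Camp UMIs per 10000 UMIs (right) in every neutrophil-like cell of the 4 libraries; 1 point is 1 cell and the black line is the library's median. Medians on the left are 35.0, 27.3, 34.8 and 25.5%; 1 control cell on the right stands apart at 2111 Camp UMIs per 10000.

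Just inside the rule, the lowest members had 20 S100a8, 29 S100a9 and 3 Ngp UMIs. The member with 20 S100a8 UMIs was a control cell with 7.34% mitochondrial UMIs and 3572 UMIs in all, 754 of them Camp and 495 Ngp. Just outside, 21 cells passed both S100 thresholds but had under 3 Ngp UMIs (3 in Ikk2CA, 12 in Jak2V617F, 1 in the double mutant and 5 in control). Summed, those 21 cells held 10220 CPM (a gene's share of all UMIs of the summed cells, per 1000000) of Elane, 5752 CPM of Mpo and 10320 CPM of Prtn3, all primary granule genes, beside 58.6 CPM of Camp. Late neutrophil and inflammatory transcripts were in the same sums, with 537.4 CPM of Retnlg, 185.7 of Cxcr2, 175.9 of Csf3r, 149.8 of Il1b and 104.2 of Clec4d. Ltf and Ly6g had 1 UMI each. Cxcr2, Csf3r, Il1b and Clec4d were thus above their summed level in the members, which was 95.2, 52.1, 5.99 and 16.2 CPM. Median depth was 3167 UMIs in the 3 Ikk2CA cells, 5807.5 in the 12 Jak2V617F cells and 28611 in the 5 control cells. Whether the same cells held primary and late transcripts was not tested. A further control cell missed on S100a9 alone, with 18 UMIs.

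Set against Elane-high progenitors as sums over the 4 libraries, 7807 genes had at least 10 CPM in either class. Of these, 930 (11.9%) were at least 2-fold higher in neutrophil-like cells and 1983 (25.4%) were at most 0.5-fold. The median log2 ratio over all 7807 genes was -0.42. With trimmed-mean (TMM) scaling factors, which centre the bulk of genes, the median was -0.03 and the counts were 1338 higher and 1001 lower. List medians below are log2 ratios of CPM and stand beside -0.42 for all genes.

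Secondary granule genes were the plainest feature. All 15 genes of the list were at least 2-fold higher in neutrophil-like cells, with a median log2 ratio of 9.85. The list holds Ngp, which chose the cells, so the direction of that gene was set by the rule. Camp stood at 40980 CPM in Ikk2CA, 37450 in Jak2V617F, 41990 in double mutant and 35580 in control neutrophil-like cells, against 0.635 to 3.52 CPM in Elane-high progenitors of the 4 libraries. Summed, that was 38490 against 1.20 CPM, a ratio of 32100 (24770 to 42390). Ltf stood at 5337, 6318, 6969 and 4255 CPM in the same order, against 0.0907 to 0.30 CPM in the progenitors. The sums per library did not overlap between the classes for either gene. Single cells did: 3 members had 0 Camp UMIs and 12 had 0 Ltf UMIs, while 54 Elane-high cells had at least 1 Camp UMI. Chil3, a chitinase-like protein of murine myeloid cells, was at 6396 against 0.673 CPM, and Lcn2 at 12030 against 23.6 CPM, a ratio of 510 (481 to 542). Cd177, which encodes a neutrophil surface protein, was at 628.6 against 0.189 CPM. The smallest ratio of the list belonged to Hp, the haptoglobin gene, at 1346 against 247.5 CPM (ratio 5.44, 5.20 to 5.69), so this secretory transcript was plentiful in Elane-high progenitors too.

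S100a8 and S100a9 lie 22.6 kb apart on chromosome 3, and Camp, Ngp and Ltf lie on chromosome 9 with 570.1 kb between Camp and Ngp and 596.3 kb between Ngp and Ltf. The promoters of these granule genes are shown with that of Elane, since they are the transcripts that separate the classes, and C/EBP-family factors and PU.1 are known to drive granule genes. Each window holds the 250 bases before the RefSeq start of the gene on GRCm38.p6, read 5′ to 3′ on the gene's strand: chr9:110419558-110419807 (plus strand) for Ngp, chr9:111019042-111019291 (plus) for Ltf, chr3:90695722-90695971 (minus) for S100a9, chr9:109849457-109849706 (minus) for Camp and chr10:79886062-79886311 (plus) for Elane. Capitals mark matches to the C/EBP-type letters TTGCNNAA or to the PU.1-type letters GAGGAA on either strand, which read TTNNGCAA and TTCCTC on the opposite one.
Ngp: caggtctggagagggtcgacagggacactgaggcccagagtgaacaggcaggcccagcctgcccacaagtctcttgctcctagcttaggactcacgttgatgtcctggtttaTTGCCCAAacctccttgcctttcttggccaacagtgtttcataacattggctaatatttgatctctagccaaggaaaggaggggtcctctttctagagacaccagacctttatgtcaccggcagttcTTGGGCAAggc
Ltf: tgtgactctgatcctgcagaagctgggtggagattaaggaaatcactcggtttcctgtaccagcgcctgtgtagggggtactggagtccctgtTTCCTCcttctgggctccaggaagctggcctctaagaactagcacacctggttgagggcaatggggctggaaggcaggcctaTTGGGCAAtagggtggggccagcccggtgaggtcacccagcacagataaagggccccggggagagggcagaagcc
S100a9: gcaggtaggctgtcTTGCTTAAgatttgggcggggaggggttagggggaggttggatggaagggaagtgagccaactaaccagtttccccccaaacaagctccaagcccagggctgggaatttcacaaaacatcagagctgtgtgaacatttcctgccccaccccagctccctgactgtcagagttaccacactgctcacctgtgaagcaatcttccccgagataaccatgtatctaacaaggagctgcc
Camp: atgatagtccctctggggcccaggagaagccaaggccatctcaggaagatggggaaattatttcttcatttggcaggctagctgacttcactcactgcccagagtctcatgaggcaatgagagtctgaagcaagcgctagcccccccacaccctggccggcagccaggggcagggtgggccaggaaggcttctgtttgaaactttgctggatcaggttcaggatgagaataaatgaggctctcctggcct
Elane: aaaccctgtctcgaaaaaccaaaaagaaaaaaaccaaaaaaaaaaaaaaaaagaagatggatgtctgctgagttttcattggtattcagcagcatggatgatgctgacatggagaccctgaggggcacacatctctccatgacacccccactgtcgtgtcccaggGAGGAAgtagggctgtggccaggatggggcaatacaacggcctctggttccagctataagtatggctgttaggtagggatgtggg
Ngp had C/EBP-type matches beginning 138 and 11 bases before the start, and Ltf had a C/EBP-type match at 75 bases and a PU.1-type match at 157. S100a9 had a C/EBP-type match at 236 bases, Elane had a PU.1-type match at 85, and Camp had none of these letters in its window. Of 13 secondary granule genes with a window, 4 (30.8%) held the C/EBP-type letters and 8 (61.5%) the PU.1-type letters, against 9.56% and 23.3% of all 32851 windows. Among 10 primary granule genes, 1 held the C/EBP-type and 5 the PU.1-type letters. Among 13 tertiary granule and mature neutrophil genes, 4 (30.8%) held the C/EBP-type and 9 (69.2%) the PU.1-type letters, so neither share was particular to the secondary list. S100a8, whose window is not printed, had PU.1-type matches at 170 and 36 bases and no C/EBP-type match. Hp, Orm1 and Mmp9 were among the listed genes with no window in the table. A match of letters is a description of the sequence and shows no binding.

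Tertiary granule and mature neutrophil genes followed in the same direction with wider spread. Of 15 listed genes, 13 were compared, 11 were higher and 10 at least 2-fold higher, with a median of 6.62; with TMM factors all 13 were higher. Retnlg, a resistin-like cytokine of mouse neutrophils, stood at 2843 CPM in Ikk2CA, 2253 in Jak2V617F, 1253 in double mutant and 525.1 in control neutrophil-like cells, against 0 to 0.226 CPM in Elane-high progenitors. Mmp9, the gelatinase gene, stood at 674.6, 508.0, 416.3 and 239.4 CPM against 0 to 0.131 CPM. Both genes were lowest in the control members, and still far above any progenitor sum. Fpr2 and Fpr1, formyl peptide receptors that sense bacterial products, had 109.5 and 36.5 CPM in neutrophil-like cells and 0 UMIs in Elane-high progenitors, at least 1736-fold and 579-fold higher with a floor of 3 UMIs over the class. Itgam, the CD11b integrin, was at 283.8 against 6.48 CPM and Cxcr2, the chemokine receptor by which neutrophils leave the marrow, at 95.2 against 4.67 CPM. Csf3r, the receptor of the neutrophil growth factor G-CSF, stood at 52.1 against 35.2 CPM (ratio 1.48, 1.18 to 1.84). The cytokine gene Il1b was at 5.99 CPM and so below the level at which genes were compared.

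Primary granule genes were lower. Of 10 listed genes, 9 were lower and 8 at most 0.5-fold, with a median of -1.44; with TMM factors the median was -1.04 and 5 were at most 0.5-fold. Mpo, the myeloperoxidase gene, stood at 240.3 CPM in Ikk2CA, 592.5 in Jak2V617F, 196.1 in double mutant and 1526 in control neutrophil-like cells, against 3754, 5088, 4150 and 5875 CPM in the Elane-high progenitors of those libraries. Summed, that was 661.5 against 4436 CPM (ratio 0.149, 0.140 to 0.158). Ctsg, the cathepsin G gene, was at 460.3 against 3333 CPM and Prtn3, the proteinase 3 gene, at 1375 against 4743 CPM. With every barcode counted, control members held the highest level of each of these genes and double mutant members the lowest. The exception in the list was Fcnb, ficolin B, at 763.9 against 1.58 CPM (ratio 484, 383 to 620). Ms4a3, a membrane protein of granulocyte-monocyte progenitors, was at 341.2 against 623.5 CPM. Elane itself, which is in the list and set the progenitor class, was at 1165 against 2883 CPM.

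**Figure D3:**
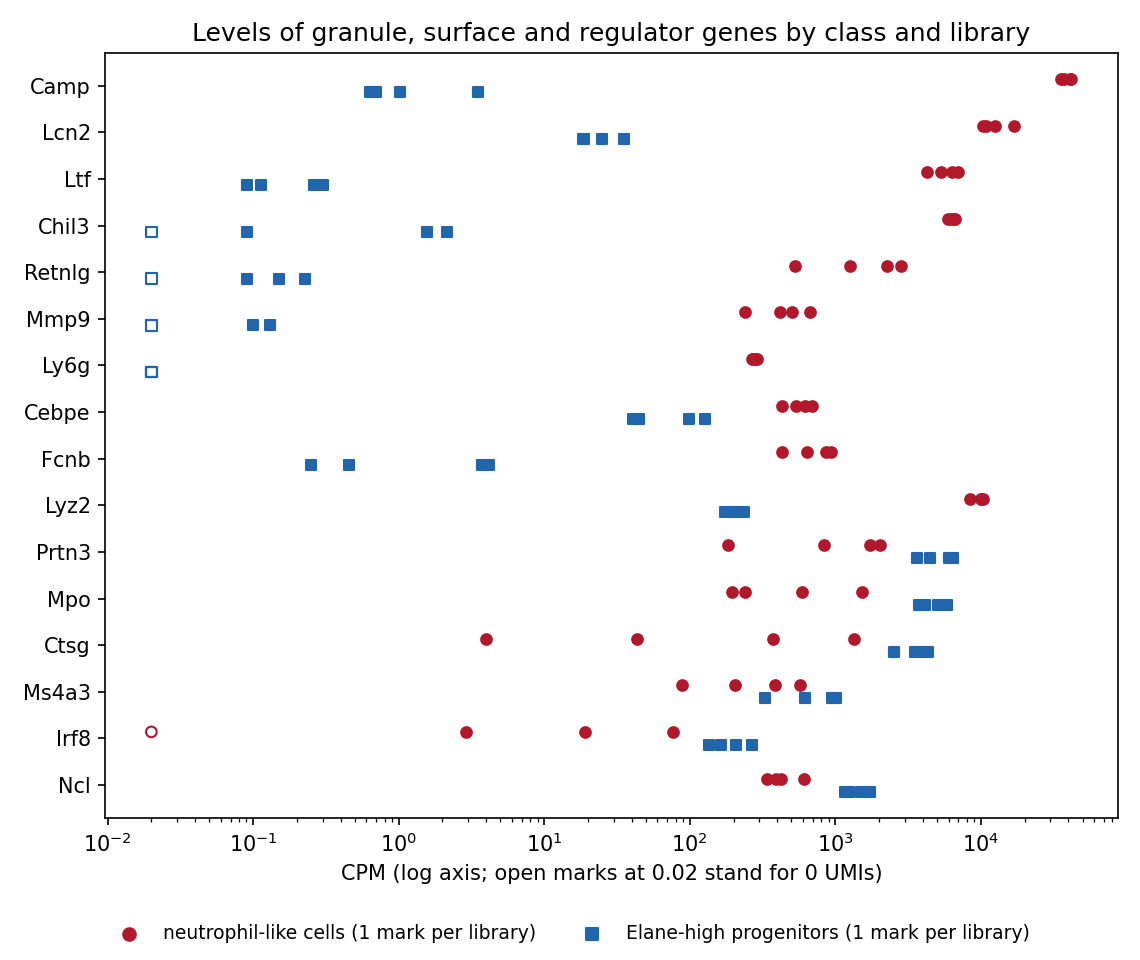
Levels of 16 granule, surface and regulator genes (x axis, CPM on a log scale) in neutrophil-like cells (circles) and Elane-high progenitors (squares); each mark is the sum over 1 library, and open marks at 0.02 stand for 0 UMIs. Camp, Ltf, Lcn2 and Chil3 marks are clear of each other by class, while Prtn3, Mpo and Ctsg lie lower in neutrophil-like cells and spread widely, with Ctsg between 4.00 and 1350 CPM.

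Genes of the neutrophil's killing machinery and its regulators differed as well. All 6 NADPH oxidase genes, whose enzyme makes superoxide, were at least 2-fold higher, with a median of 2.02: Cybb, its catalytic subunit, was at 1078 against 48.3 CPM and Ncf1, an organising subunit, at 449.6 against 75.6 CPM. In the S100 family, 8 of 16 genes were compared and 4 were at least 2-fold higher. These 4 include S100a8 and S100a9, which chose the cells, so the rule set their direction. S100a6 was at 1427 against 27.5 CPM, while S100a10 (78.4 against 183.9 CPM) and S100a4 (2.99 against 14.8 CPM) were lower. Of 13 myeloid transcription factors compared, 4 were at least 2-fold higher and 5 at most 0.5-fold. Cebpe, which encodes the C/EBP factor required for secondary granules, stood at 538.0 CPM in Ikk2CA, 695.8 in Jak2V617F, 432.3 in double mutant and 623.1 in control neutrophil-like cells, against 40.6, 99.1, 44.7 and 127.8 CPM in Elane-high progenitors. Cebpd (276.6 against 66.3 CPM), the MYC antagonist Mxd1 (164.0 against 7.01 CPM) and Klf2 (84.4 against 13.7 CPM) were the other 3 that were higher. Cebpa, which founds the granulocyte-monocyte progenitor, was at 16.8 against 68.7 CPM, and Irf8, which favours monocytes and dendritic cells, at 22.2 against 208.8 CPM. Myb, Myc and Zeb2 completed the 5 that were lower. Spi1, the PU.1 gene, and Gfi1, a repressor needed for neutrophils, were at 326.9 against 241.1 CPM and 29.9 against 33.4 CPM, both within 2-fold.

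Housekeeping programmes of growth were lower in the members. All 18 ribosome biogenesis genes were at most 0.5-fold, with a median of -1.68 (15 with TMM factors), among them Ncl, nucleolin, at 445.4 against 1370 CPM. Of 77 cytosolic ribosomal protein genes compared, 75 were at most 0.5-fold, with a median of -1.33. By library that median was -1.70 in Ikk2CA, -1.325 in Jak2V617F, -1.55 in the double mutant and -0.83 in control. This list was not counted with TMM factors, which moved the median of all genes from -0.42 to -0.03, so its count depends on the scaling. Of 13 endoplasmic reticulum folding genes, 12 were at most 0.5-fold (9 with TMM factors), with a median of -1.88, including the chaperones Calr at 412.5 against 2072 CPM and Hspa5 at 185.6 against 714.8 CPM. Proliferation genes did not follow. Of 16 compared, 8 were higher and 8 lower, with a median of -0.09 that was 0.31 with TMM factors. Mitotic Mki67 and Ube2c were at 264.6 against 159.9 CPM and 457.4 against 237.5 CPM, while the replication licensing gene Mcm6 was at 81.4 against 184.5 CPM. With every cell thinned to 5000 UMIs, Mki67 or Top2a was detected in 68 of 103 neutrophil-like cells (66%, interval 56 to 75.1%), in 72.3% of 1350 Elane-high progenitors and in 52.8% of 33141 other kept cells.

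Among the other lists, 5 of 9 interferon-stimulated genes were at least 2-fold higher, with a median of 1.00 that was -0.11 among genes with 50 CPM. By library that median was 1.53 in Ikk2CA, 0.62 in Jak2V617F, 1.08 in the double mutant and -0.56 in control, so its sign differed in control. In the same comparison, 2 of 16 NF-κB target genes were at least 2-fold higher and 5 at most 0.5-fold (median -0.13, and 0.27 with TMM factors). Of 12 immediate early genes, 3 were at least 2-fold higher and 3 at most 0.5-fold (median -0.30, and 0.10 with TMM factors). Among 7 genes of the JAK-STAT feedback list, 1 was at least 2-fold higher and 3 at most 0.5-fold (median -0.56). Ccr1, a chemokine receptor of neutrophils and monocytes, was at 46.7 against 1.22 CPM, and Cxcr4, which holds young neutrophils in the marrow, at 89.8 against 48.8 CPM. Ccr2 and Cx3cr1, chemokine receptors of monocytes, had 0 UMIs in neutrophil-like cells against 42.1 and 27.0 CPM.

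By the rule for named genes (the 15 highest and 15 lowest ratios with 100 CPM in either class and 1 direction in all 4 libraries), the highest were Camp, Ltf, Retnlg, Chil3, Itgb2l, Mmp9, Cstdc4, Ly6g, Chil1, Cd177, Fpr2, Olfm4, Orm1, Plbd1 and Lcn2. Besides the granule genes given above, they held Itgb2l, an integrin chain of neutrophils (189.2 against 0.0210 CPM), Chil1, a chitinase-like protein (238.9 against 0.0631 CPM), Olfm4, a glycoprotein of specific granules found in a subset of neutrophils (375.9 against 0.379 CPM), and Plbd1, a phospholipase B-like protein (186.8 against 0.274 CPM). The stefin-like gene Cstdc4 had 103.0 against 0.0210 CPM, mostly from Ikk2CA with 398.7 CPM; it had 0 UMIs in both classes of control, where its direction rests on the floor alone. The lowest began with the monocyte genes F13a1, coagulation factor XIII (2.40 against 120.3 CPM), and Ms4a6c (5.99 against 243.8 CPM), and with Ccl9, a chemokine (8.38 against 135.6 CPM). They also held Irf8, Ctsg, Mpo, Zeb2 and the folding genes Pdia4 and Calr, Lgals1, galectin-1 (85.6 against 648.5 CPM), Plac8, an abundant progenitor transcript (732.1 against 3858 CPM), and the metabolic and translation genes Ass1, Fabp5, Idh2 and Eif1a.

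The transcripts of the sort antigens were set out next, since the gate selects on Kit and Sca-1 protein and the lineage antibodies remove mature cells. Kit stood at 30.0 CPM in Ikk2CA, 52.4 in Jak2V617F, 40 in double mutant and 43.5 in control neutrophil-like cells, against 75.6, 108.6, 65.9 and 75.8 CPM in Elane-high progenitors, and at 128.3 CPM in all other kept cells. Ly6a, the gene of Sca-1, was at 35.9 CPM in neutrophil-like cells, 53.7 in Elane-high progenitors and 185.4 in other kept cells, with 108.1 CPM in double mutant and 10.9 in control members. The double mutant level rests on 3 of 11 cells, 1 of them with 18 Ly6a UMIs, and the control level on 3 of 27 cells. Cd34 was at 48.5, 224.6 and 293.2 CPM in the 3 classes. At 5000 UMIs per cell, Kit was detected in 17.5% of 103 neutrophil-like cells (10.7 to 26.2%), 32.5% of Elane-high progenitors and 48.2% of other kept cells. Ly6a was detected in 7.77%, 17.9% and 49.0%, and Cd34 in 11.7%, 62.0% and 69.1%. In cells with at least 5 Cd79a UMIs, Kit was detected in 13.7%, Cd34 in 8.25% and Ly6a in 56.5%. The intervals of the neutrophil-like cells held the first 2 of these values (Cd34 interval 6.17 to 19.5%), so no difference in Kit or Cd34 from those cells was detectable, while their Ly6a interval of 3.41 to 14.7% lay below. The genotype mix differed, with 1485 of the Cd79a cells and 21 of the 103 neutrophil-like cells from Ikk2CA. Inside Ikk2CA, Kit was detected in 14.3% of neutrophil-like and 13.1% of Cd79a cells, Cd34 in 4.76 and 7.07%, and Ly6a in 14.3 and 60.8%.

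The antigens of mature cells ran the other way. Ly6g, the gene of the Ly6G antigen, stood at 292.2 CPM in Ikk2CA, 272.2 in Jak2V617F, 280.2 in double mutant and 269.4 in control neutrophil-like cells, and had 0 UMIs in Elane-high progenitors, at least 4392-fold higher with the floor of 3 UMIs. At 5000 UMIs it was detected in 50 of 103 neutrophil-like cells (48.5%, 38.6 to 58.6%) and in 0 of 1350 Elane-high progenitors, and in 0.006% of other kept cells. Itgam was detected in 77.7%, 2.74% and 3.83% of the same classes, Camp in 99.0%, 0.963% and 1.04%. Transcripts and surface protein need not match, and no surface protein was measured here.

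The 12 genes listed as neutrophil markers were all at least 2-fold higher, with a summed level of 351200 CPM in Ikk2CA, 311900 in Jak2V617F, 368000 in double mutant and 265700 in control members. The list holds S100a8, S100a9 and Ngp, which chose the cells and make up most of these sums. The other 9 genes were each higher than in Elane-high progenitors in all 4 libraries; they too were read in the chosen cells, so this describes the cells and tests no label. Of 6 monocyte markers compared, 5 were at most 0.5-fold (median -4.23), Csf1r at 7.78 against 35.3 CPM; only Ly6c2, which neutrophils also make, was higher, at 942.2 against 635.7 CPM. The macrophage list summed to 13.6 to 106.5 CPM and the mast, basophil and eosinophil list to 0 to 10.9 CPM over the 4 libraries. Markers of other lineages were also present in the members. Of 6 B-cell genes compared, 5 were at least 2-fold higher (median 2.88), and the listed 8 summed to 1357 CPM in Ikk2CA, 211.1 in Jak2V617F, 8.00 in double mutant and 204.1 in control members, against 34.8 to 168.0 CPM in Elane-high progenitors. The erythroid list summed to 120.2 CPM in Ikk2CA, 505.1 in Jak2V617F, 236.2 in double mutant and 57.1 in control members. The T-cell list summed to 4.00 to 55.3 CPM over the libraries, nearly all of it Cd3d, a T-cell receptor complex subunit, at 31.1 against 0.168 CPM (ratio 185, 87.3 to 451), while Cd3e, Cd3g, Cd4 and Cd8a were at 0. The megakaryocyte list summed to 5.44 to 200.1 CPM, most of it Pf4, platelet factor 4, at 57.5 against 16.6 CPM (ratio 3.47, 2.78 to 4.30), while Ppbp and Gp5 were at 0. At least 1 UMI of the list was found in 30 members for B-cell, 27 for T-cell, 45 for erythroid and 23 for megakaryocyte genes, with at most 5 T-cell UMIs in any member. At least 10 UMIs of another lineage's list were held by 18 members, 6 in Ikk2CA, 6 in Jak2V617F, 3 in the double mutant and 3 in control. Without those 18 the B-cell median was below the progenitor level, at -2.55. Whether such droplets held more than 1 cell was not tested.

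The members were not uniform, and a split chosen after their values were seen describes this. Members with at least 5 Retnlg UMIs numbered 44, members with neither gene at that level 56 and members with at least 5 Elane UMIs 26, and 0 cells had both. Median depth was 7048 UMIs in Retnlg members, 11336 in members with neither and 16231 in Elane members, with 1525, 2476 and 3165 detected genes and 0.542, 1.21 and 2.25% mitochondrial UMIs in the same order. Retnlg members were thus the shallowest and Elane members the deepest. Since both splitting genes were measured in the same cells, the differences between these sets are descriptions.

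Retnlg members held the late transcripts. Mmp8, the neutrophil collagenase gene, was at 1636 CPM in Retnlg members, 54.9 CPM in members with neither and 0 UMIs in Elane members. Mmp9 was at 1564, 167.3 and 19.8 CPM, Cxcr2 at 256.3, 50.8 and 27.7 CPM and Ly6g at 558.1, 266.3 and 61.3 CPM in the same order. S100a6 was at 4225, 679.7 and 221.5 CPM. All 5 genes thus ran from Retnlg members down to Elane members, and Mmp8 was highest in Retnlg members inside every library, with 1613 CPM in Ikk2CA, 1802 in Jak2V617F, 1479 in double mutant and 1144 in control Retnlg members and 0 in the Elane members of each. Of 2663 genes with 50 CPM in either set, 405 (15.2%) were at least 2-fold higher in Retnlg than in Elane members and 282 (10.6%) at most 0.5-fold, and that second count was 800 without the Jak2V617F library. All 13 tertiary genes compared were at least 2-fold higher (median 4.52, against -0.13 for all genes) and 7 of 9 immediate early genes were (median 2.16). The tertiary list holds Retnlg, which made the split, so the direction of that gene was set by it.

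Camp, Ngp and Chil3, all secondary granule genes, were highest in members with neither when summed over the libraries. Camp was at 25980 CPM in Retnlg members, 46960 in members with neither and 36300 in Elane members, Ngp at 23630, 41370 and 22040 CPM and Chil3 at 3459, 8715 and 5394 CPM. Ltf was at 7111, 7497 and 2031 CPM, with the lowest sum in Elane members. The order was not the same in every library. For Camp, in the same order of cells, Ikk2CA had 30660, 41990 and 49020 CPM and Jak2V617F had 15230, 49740 and 39740 CPM. Double mutant cells, with a single Elane member, had 36100, 57760 and 994.4 CPM, and control cells had 47890, 37060 and 31500 CPM. Members with neither were thus highest for Camp in Jak2V617F and the double mutant, and not in Ikk2CA or control. In control the 4 Retnlg members were also highest for Ngp (43770, 32380 and 18940 CPM), Chil3 (6862, 6654 and 6288 CPM) and Ltf (12410, 4887 and 1907 CPM).

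Elane members held the primary granule transcripts. Prtn3 was at 134.1 CPM in Retnlg members, 202.0 in members with neither and 4134 in Elane members, Mpo at 117.4, 28.1 and 2047 CPM and Fcnb at 98.2, 709.2 and 1394 CPM. All 9 primary granule genes compared were at most 0.5-fold in Retnlg against Elane members (median -3.83). This list holds Elane, which made the split, so the direction of that gene was set by it. Cebpe was at 323.3, 687.7 and 718.0 CPM, about level in the last 2 sets. At 5000 UMIs per cell, Mki67 or Top2a was detected in 11 of 31 Retnlg members (35.5%, 19.2 to 54.6%), 37 of 47 with neither (78.7%, 64.3 to 89.3%) and 20 of 25 Elane members (80.0%, 59.3 to 93.2%). Transcripts of dividing cells were thus seen in a lower share of the Retnlg members when the libraries were summed. The Retnlg share was the lowest of the sets in Ikk2CA (2 of 10), Jak2V617F (6 of 14) and the double mutant (1 of 4). It was not in control, with 2 of 3 Retnlg members, 7 of 8 with neither and 6 of 10 Elane members.

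**Figure D4:**
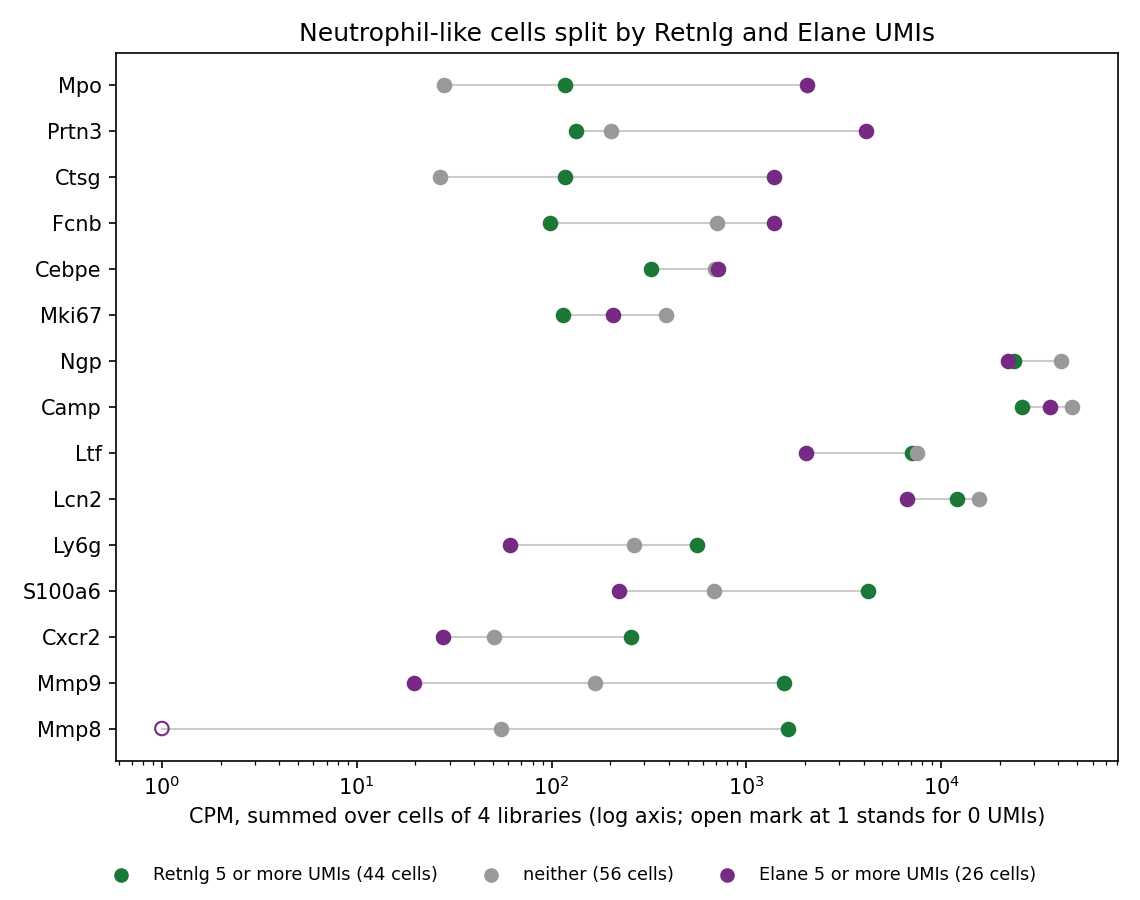
Levels (x axis, CPM on a log scale, summed over the 4 libraries) of 15 genes in neutrophil-like cells with at least 5 Retnlg UMIs, with neither, and with at least 5 Elane UMIs; the open mark stands for 0 UMIs. Mpo, Prtn3, Ctsg and Fcnb are highest in the Elane members, Ngp and Camp in the members with neither, and Ly6g, S100a6, Cxcr2, Mmp9 and Mmp8 in the Retnlg members.

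The 3 sets were not shared evenly among genotypes. Retnlg members were 13 of 26 in Ikk2CA (50%, 29.9 to 70.1%), 23 of 62 in Jak2V617F (37.1%, 25.2 to 50.3%), 4 of 11 in the double mutant (36.4%, 10.9 to 69.2%) and 4 of 27 in control (14.8%, 4.19 to 33.7%). Elane members were 4 of 26 in Ikk2CA (15.4%, 4.36 to 34.9%), 10 of 62 in Jak2V617F (16.1%, 8.02 to 27.7%), 1 of 11 in the double mutant (9.09%, 0.230 to 41.3%) and 11 of 27 in control (40.7%, 22.4 to 61.2%). Control thus had the lowest Retnlg share and the highest Elane share, with intervals that overlapped those of each mutant. These values come from 1 library each and were not tested.

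**Figure D5:**
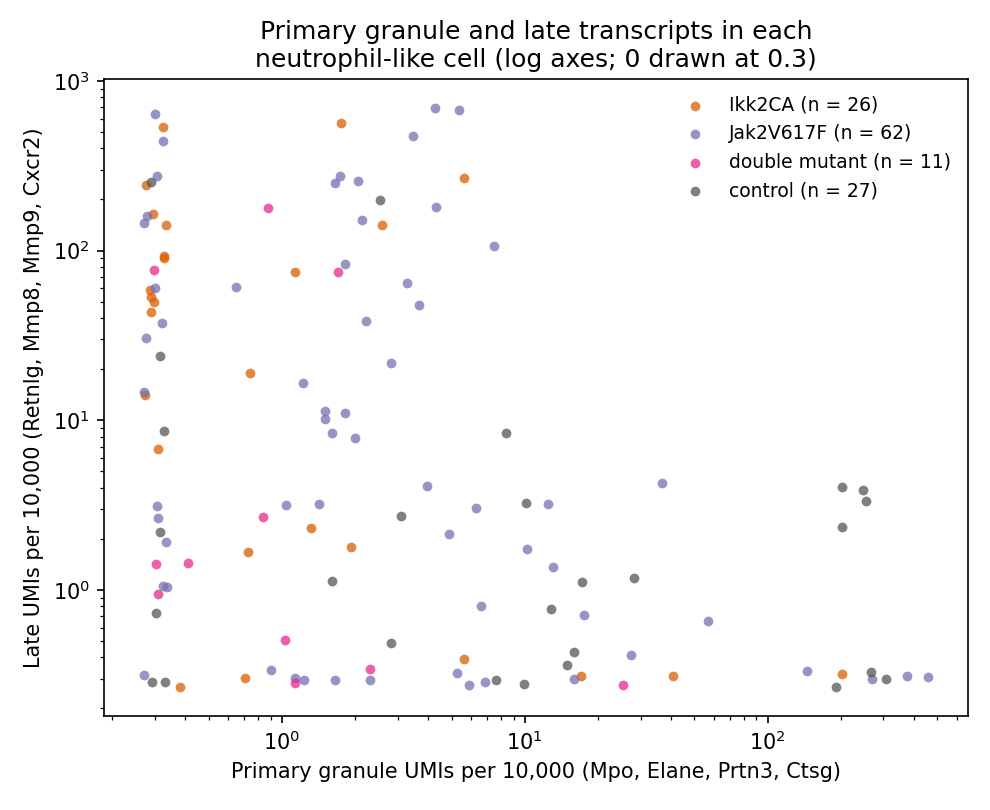
Primary granule UMIs per 10000 (x axis, sum of Mpo, Elane, Prtn3 and Ctsg) against late UMIs per 10000 (y axis, sum of Retnlg, Mmp8, Mmp9 and Cxcr2) in each of the 126 neutrophil-like cells, coloured by library; both axes are logarithmic, 0 is drawn at 0.3 and points are slightly spread. Cells lie along the axes, with the 44 Retnlg members high on the y axis and the 26 Elane members to the right, where 11 are control cells.

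Some control members differed from each other by no more than counting noise. Of all pairs of members of 1 library, 12 pairs had a mean squared deviation of 0.955 to 1.23 times the binomial one, over at least 100 genes with 10 UMIs in the pair, and all 12 lay in control. They formed 3 sets of 5, 2 and 2 barcodes. The set of 5 ranged from 3456 to 11680 UMIs, with 40.8 to 45.4 Elane, 56.1 to 81.0 Mpo and 270.6 to 320.2 S100a8 UMIs per 10000, and all 5 were Elane members. The lowest pair ratio in another library was 1.41 in Ikk2CA, 1.55 in Jak2V617F and 2.58 in the double mutant. Counting each set as 1 cell left 21 control members of 8049 kept cells (0.261%, 0.162 to 0.399%), of which 6 were Elane members (interval 11.3 to 52.2%). Whether several barcodes tagged the same cell was not tested.

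Between genotypes, neutrophil-like cells were compared where both libraries had at least 20, which left out the double mutant with 11. In Ikk2CA over control, 2511 genes had 50 CPM in either library, and 161 (6.41%) were at least 2-fold higher and 200 (7.96%) at most 0.5-fold, with a median log2 ratio of -0.13; without members carrying other-lineage markers 408 were at most 0.5-fold. All 12 tertiary granule genes compared were higher and 8 at least 2-fold (median 1.94), while 8 of 9 primary granule genes were at most 0.5-fold (median -1.48). Secondary granule genes lay near each other, 13 of 15 higher and 1 at least 2-fold (median 0.26). Retnlg was at 2843 CPM in Ikk2CA and 525.1 in control members (ratio 5.41, 4.64 to 6.35), but 52.3% of the control UMIs came from 1 cell. Mpo was at 240.3 and 1526 CPM, with 84.1% of the Ikk2CA and 45.5% of the control UMIs from 1 cell each. Ly6g was close in both, at 292.2 and 269.4 CPM (ratio 1.08, 0.818 to 1.44), as was Camp at 40980 and 35580 CPM. With the agreeing control barcodes counted as 1 cell, the tertiary median was 1.83 and the primary median -1.25. The differing shares of Retnlg and Elane members stand beside these values, and their part was not tested.

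The NF-κB target Nfkbia and immediate early transcripts were also higher in Ikk2CA members. Nfkbia, the NF-κB inhibitor that NF-κB itself induces, was at 376.9 CPM in Ikk2CA and 133.3 in control members (ratio 2.83, 2.03 to 4.00), and was detected in 26 of 26 and 17 of 27 cells. It was at 186.3 CPM in Jak2V617F and 396.3 in double mutant members. In Elane-high progenitors of the same libraries Nfkbia was at 273.7 CPM in Ikk2CA, 56.8 in Jak2V617F, 193.2 in the double mutant and 35.8 in control, so it was higher with the Ikk2CA allele in both classes. Of the 25 listed NF-κB targets, 3 were high enough to compare, and Nfkbia alone among them was past 2-fold. All 9 immediate early genes compared were higher and 6 at least 2-fold (median 1.31), among them the transcription factor gene Fos at 152.9 and 16.3 CPM and Zfp36, an RNA-decay factor, at 172.1 and 54.4 CPM. Fos was at 236.5 CPM in Ikk2CA and 20.5 in control Elane-high progenitors. In the double mutant, which carries the same allele, Fos was at 25.5 CPM in the Elane member and 9.50 in the others. Control members had 24.1 and 9.93 CPM in the same order. The immediate early list summed to 1254 CPM in Ikk2CA, 751.1 in Jak2V617F, 684.5 in double mutant and 500.6 in control members. In Elane-high progenitors it summed to 1341, 532.1, 369.1 and 348.0 CPM. Immediate early genes were higher in Retnlg members too, which made up a higher share of the members in Ikk2CA, and the part of that share was not tested.

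The Ikk2CA genes named by rule (the 6 highest and 6 lowest with 200 CPM in either library) began with the pre-B gene Vpreb3, at 319.5 CPM in Ikk2CA and 5.44 in control members and detected in 8 of 26 and 1 of 27 cells. Vpreb3 is in the B-cell list, of which 4 Ikk2CA members held at least 10 UMIs, up to 166, and the other members under 5. The Ikk2CA level of Vpreb3 thus rests mostly on those 4 cells. The stefin genes Cstdc4 and Stfa2l1 had 398.7 and 213.0 CPM in Ikk2CA, each from 5 cells, and 0 UMIs in control, at least 48.9-fold and 26.1-fold higher with the floor of 3 UMIs. Ifi27l2a, an interferon-induced gene, was at 505.3 and 13.6 CPM, and the histone genes Hist1h2ap and Hist1h4d at 778.4 and 46.3 CPM and 259.5 and 16.3 CPM. Stefin, histone and globin genes have near-identical copies among which reads may be divided, so their single values are uncertain. The lowest were Ctsg at 43.7 and 1350 CPM, Mpo, Nkg7 at 90.1 and 299.3 CPM, the lymphoid polymerase gene Dntt at 103.8 and 340.1 CPM, Rnaset2b and the histone variant gene H2afy.

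In Jak2V617F over control, 2557 genes were compared, 112 (4.38%) were at least 2-fold higher and 109 (4.26%) at most 0.5-fold, with a median of -0.03; without members carrying other-lineage markers 62 were at most 0.5-fold. All 9 tertiary granule genes compared were higher and 6 at least 2-fold (median 1.15), and 8 of 9 primary granule genes were lower, 3 at most 0.5-fold (median -0.92). With the agreeing control barcodes counted as 1 cell, the tertiary median was 1.07 and the primary median -0.71, with 7 of 9 primary genes lower. Retnlg was at 2253 CPM in Jak2V617F and 525.1 in control members (ratio 4.29, 3.69 to 5.01) and Mmp8 at 524.1 and 108.8 CPM (ratio 4.82, 3.47 to 6.85). Mmp8 was detected in 25 of 62 Jak2V617F and 2 of 27 control cells. Ltf was at 6318 and 4255 CPM and Mpo at 592.5 and 1526 CPM. Of the JAK-STAT feedback list, 2 genes were high enough to compare and neither was past 2-fold; Pim1, a STAT5-induced kinase gene, was at 90.3 and 76.2 CPM (ratio 1.19, 0.747 to 1.92). Nfkbia was at 186.3 and 133.3 CPM (ratio 1.40, 0.998 to 1.99).

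By the same rule, the highest Jak2V617F genes were Hbb-bs, Hist1h2ap, Mmp8, Hist1h1e, Retnlg and Hist1h1b. Hbb-bs, a beta-globin gene, was at 231.5 CPM in Jak2V617F and 5.44 in control members, and all 159 UMIs behind the first value came from 1 cell. Hist1h2ap was at 391.6 and 46.3 CPM and seen in 32 of 62 and 6 of 27 cells, and so was higher in both single mutants, which share the control library. The lowest included Dntt at 18.9 and 340.1 CPM, Ctsg at 372.7 and 1350 CPM, Cacybp, Ramp1 and Pdia6. The 11 double mutant members gave no comparison, and their levels were 1253 CPM for Retnlg, 468.3 for Mmp8 and 696.5 for Olfm4, against 525.1, 108.8 and 193.2 CPM in control.

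Xist, the RNA that silences 1 X chromosome in female cells, was read as a check on the pools. Among neutrophil-like cells with at least 5000 UMIs it was detected in 7 of 21 in Ikk2CA, 0 of 50 in Jak2V617F, 3 of 11 in the double mutant and 8 of 21 in control, beside 24.0, 0.371, 29.4 and 58.1% of other kept cells. The pools thus differ in Xist-positive cells as well as in genotype, and these cannot be told apart in a comparison of 1 library with another.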

How the data were processed

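RNA of sorted LSK cells from 4 droplet libraries, 1 per genotype, was analysed from deposited filtered matrices. The authors made these count values with Cell Ranger, as raw UMI counts per gene and barcode without normalization, in version 4.0.0 per the file headers, while the design text gives 3.0.1; per the submitters' processing notes the build was mm10 and Seurat 4.0.0 was used. Counting strand and intronic reads are not given in the sources used here. Of 41674 barcodes, 37344 passed the authors' stated limits of 500 to 7500 genes and under 10% mitochondrial UMIs. Depth is the number of UMIs per cell and per class, given in the results; intervals cover counting error only, and depths differ between classes.

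Counts were summed per class and library and given as CPM. Ratios carry exact conditional binomial intervals and shares Clopper-Pearson intervals, both at 95%. A gene counted as higher or lower at 2-fold or 0.5-fold among genes with 10 CPM in either class (50 CPM between genotypes). A class at 0 UMIs was set to a floor of 3 UMIs. No count model was used as a test, since there is 1 library per genotype; edgeR 4.0.16 and DESeq2 1.42.0 gave scaling factors alone, as alternatives. The counts of genes past 2-fold were tested on simulated counts with changes of known size, and the intervals were not. Other alternatives varied the thresholds of the cell rule, the depth, the filters, the doublet treatment (Scrublet scores, scanpy 1.11.5) and the libraries included. The members and gene lists were chosen with earlier results of these data known. Named genes were the 15 highest and 15 lowest ratios with 100 CPM in either class and the same direction in every library (6 and 6 with 200 CPM between genotypes), with the genes of the cell rules, sex-linked, antigen receptor, unnamed, mitochondrial and ribosomal protein genes left out, plus members of the lists; a few genes that meet the rule are not reported here. Promoter windows were read from RefSeq on GRCm38.p6. Analyses ran in Python 3.11.15 and R 4.3.3.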

Additional observations from a re-analysis of the deposited data

How the results depend on the processing

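All shares and ratios rest on 126 cells, on the depth of each and on 1 library per genotype, which together limit rare transcripts and differences between genotypes. No paired analysis was possible because each genotype has 1 library. Shares of neutrophil-like cells moved by less than their intervals under lower or higher UMI thresholds, thinning and the other settings tried, except that Ikk2CA had 0.0% once the cells with the highest doublet scores, which include all 26 of its members, were left out. Against Elane-high progenitors, the genes that were lower numbered 1001 with TMM factors, 956 with median-of-ratios factors and 937 at 50 CPM, and those that were higher 375 at 50 CPM and 6606 with no filter; most genes added without a filter rest on few UMIs. The secondary granule median was 9.15 after thinning to 5000 UMIs and the tertiary median 8.45 at 50 CPM. The sign turned for the B-cell markers (-2.55 without members carrying other-lineage markers) and for the interferon-stimulated genes (-0.11 at 50 CPM, where fewer genes are compared). In Ikk2CA over control, higher and lower genes numbered 36 and 47 at 200 CPM, 2057 and 1874 with no filter, and 391 and 634 with equal weight per cell, and 408 were lower without other-lineage members. In Jak2V617F over control they numbered 14 and 11 at 200 CPM, 1107 and 2250 with no filter, and 305 and 330 with equal weight per cell, and 62 were lower without other-lineage members. In Retnlg against Elane members, higher genes numbered 373 to 513 and lower genes 253 to 800 with 1 library left out, 72 and 66 at 200 CPM, and 736 were lower without other-lineage members. Beyond construction (fewer or more genes compared), the cause was not tested. Leaving out other-lineage members, equal weight per cell, counting agreeing barcodes as 1 cell and all settings of the Retnlg and Elane split were chosen after seeing the data.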
